A study of Mus musculus with 8 samples.

Results

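The genes described here are 33 genes of cholesterol and fatty acid synthesis, read in bulk RNA-seq of cells sorted by the study as leukemic stem cells (LSCs) from untreated CML mice (CML) and from CML mice given the tyrosine kinase inhibitor imatinib (CML-TKI). They were taken by gene symbol from the pathway, with earlier results of these data known, and all 33 were found among the 15576 rows of the count table. All 33 also passed the filter on low counts that left 11937 genes to test. They comprise 7 enzymes of the mevalonate steps, 11 enzymes from squalene to cholesterol, 5 regulators or sterol carriers, 4 enzymes that lead from citrate or acetate to palmitate, and 6 enzymes that desaturate or lengthen fatty acids.

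All 8 libraries came from the bone marrow of BCR-ABL×SCL-tTA double transgenic mice of the C57BL/6 strain, so the controls carry the leukemia as well. In these mice the tetracycline transactivator tTA is driven by a stem cell enhancer of the SCL gene, and BCR-ABL is switched on in those cells once tetracycline is withdrawn. The 4 CML libraries are from mice without treatment, and the 4 CML-TKI libraries are from mice given 400 mg/kg imatinib by gavage every other day for 4 weeks as the labels state it, although the study's text gives a lower dose for the mice of this RNA-seq experiment, so the dose of these libraries is not settled. The labels describe the sorted cells as lineage-negative, Sca1+, cKit+, Flt3-, CD150- and CD48+, whereas the study defines LSCs by CD150+ and CD48- within the same fraction. The labels do not say whether the libraries of a group are separate animals, so the p-values measure the spread between these libraries, which may be technical. The CML columns are numbered 1, 2, 3 and 5 and the CML-TKI columns 1 to 4, and the libraries are named by these numbers.

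Cholesterol is built from acetyl-CoA through mevalonate, isoprenoid units, squalene and lanosterol, and fatty acids are built from the same acetyl-CoA through malonyl-CoA and palmitate, which is then lengthened and desaturated. Both branches are under the control of sterol regulatory element binding proteins (SREBPs), membrane-bound transcription factors that SCAP escorts from the endoplasmic reticulum to the Golgi for cleavage when sterols are low and that INSIG proteins hold back when sterols are high. In blood-forming cells, as in other dividing cells, the pathway supplies membrane, and cells can also take up sterols and fatty acids from outside.

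Library totals were between 4939644 and 8620101 counts in CML and between 1041552 (CML-TKI 3) and 5104268 in CML-TKI, and a gene with 3 counts, taken here as the floor, stands at 0.409 to 0.580 CPM in CML and 0.570 to 3.29 CPM in CML-TKI, where CPM are counts scaled to the library's size with TMM normalization, as for all levels given here. Floors of this kind carry counting error alone. Markers of other cells differed between the groups: of 12 granulocyte markers, 11 were higher in CML-TKI with a summed level of 165 to 274 CPM in CML and 1476 to 8490 CPM in CML-TKI, and all 9 monocyte markers were higher, with 15.5 to 28.2 CPM against 822 to 4458 CPM. Markers of hematopoietic stem cells, the cell type named in the sample titles, summed to 1209 to 1588 CPM in CML and to 58.3 to 456 CPM in CML-TKI. There 4 of 11 were called lower and the other 7 did not pass the test, while 9 of the 11 were lower without overlap. Over all genes tested, 6.29% were called higher, 3.93% were called lower and 13.1% were lower without overlap. CML-TKI 1 lay nearest to the CML libraries in all 3 of these lists. CML-TKI 3 stood apart with 32859 CPM of erythroid markers, against 938 CPM or less in the other libraries, and CML-TKI 4 with 1164 CPM of basophil and mast cell markers. All 15 cell cycle genes had positive log2 fold changes, where 50% of all genes tested had negative ones, and 5 of the 15 passed the test. Their sums were 2728 to 3962 CPM in CML-TKI, 1899 to 2090.2 CPM in CML 1 to 3 and 941 CPM in CML 5, which stood apart. The stem cell, granulocyte and monocyte markers go against the labelled cell type in the CML-TKI libraries, so the groups are called CML and CML-TKI and not by a cell type. The part of any of these in the values of the lipid genes was not tested.

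The start regions of 4 genes are shown: Srebf2, Acss2 and Elovl5 passed the test, and Hmgcs1 is the one gene, of those with a start region available, that holds the sterol regulatory element core. Stard4 also passed the test but had no start region available. The region of Fads2, which did not pass the test, held none of the letters searched and is not printed. Each is the 250 bases before the start site as RefSeq annotates it on GRCm38.p6, the assembly of mm10, on the plus strand and written 5′ to 3′. Capitals mark the core TCACNCCAC or the same letters without the last (TCACNCCA), the E-box CACGTG, and the CCAAT box, which reads ATTGG on this strand. The regions lie at chr15:82147019-82147268 for Srebf2, chr2:155517793-155518042 for Acss2, chr9:77917115-77917364 for Elovl5 and chr13:119690101-119690350 for Hmgcs1.
Srebf2: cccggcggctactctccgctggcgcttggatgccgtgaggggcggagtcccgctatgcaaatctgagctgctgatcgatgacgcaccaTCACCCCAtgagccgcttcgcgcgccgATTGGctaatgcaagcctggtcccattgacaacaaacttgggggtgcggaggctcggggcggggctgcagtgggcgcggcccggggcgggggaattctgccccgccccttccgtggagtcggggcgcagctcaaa
Acss2: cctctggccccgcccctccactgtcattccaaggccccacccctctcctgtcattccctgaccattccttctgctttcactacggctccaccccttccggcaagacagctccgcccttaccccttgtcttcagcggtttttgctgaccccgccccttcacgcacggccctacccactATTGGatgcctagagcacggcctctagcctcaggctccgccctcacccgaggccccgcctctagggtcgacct
Elovl5: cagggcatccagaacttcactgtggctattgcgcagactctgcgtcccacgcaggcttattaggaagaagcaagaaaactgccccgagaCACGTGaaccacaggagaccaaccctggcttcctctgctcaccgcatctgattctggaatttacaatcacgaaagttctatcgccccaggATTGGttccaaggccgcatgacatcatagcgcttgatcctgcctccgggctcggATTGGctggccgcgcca
Hmgcs1: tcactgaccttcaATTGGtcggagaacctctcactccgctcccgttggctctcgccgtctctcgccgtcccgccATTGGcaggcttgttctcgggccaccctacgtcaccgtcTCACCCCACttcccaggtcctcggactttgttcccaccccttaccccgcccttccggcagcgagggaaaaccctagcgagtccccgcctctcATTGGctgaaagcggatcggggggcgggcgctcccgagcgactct

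In Srebf2 the letters TCACCCCA began 162 bases before the start site and an ATTGG followed at 135 bases. In Acss2 only an ATTGG was found, at 73 bases. In Elovl5 the E-box began 161 bases before the start, with ATTGG at 71 and 17 bases. In Hmgcs1, which encodes the synthase that makes HMG-CoA, the core TCACCCCAC began at 137 bases, with ATTGG at 237, 176 and 45 bases. RefSeq start regions (250 bases before to 50 after the start, both strands searched) were available for 26 of the 33 genes, 32 regions in all. The core TCACNCCAC was in 1 of them (3.125%), against 1.24% of all 32851 start regions. The letters TCACNCCA, which contain the core and were added after the regions had been read, were in 3 regions (of Hmgcs1, Msmo1 and Srebf2), 9.375% against 4.36%. CACGTG was in 7 regions of 6 genes (21.9% against 7.15%) and CCAAT in 22 regions of 21 genes (68.8% against 37.4%). A match is a description of the letters, and no match says only that these letters are not in this window.

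4 of the 33 genes passed the test of CML-TKI against CML: Elovl5, a fatty acid elongase, rose, and Srebf2, Stard4 and Acss2 fell. An adjusted p under 0.05 in edgeR's quasi-likelihood test was the threshold, and 10.2% of all 11937 genes tested passed it, 6.29% higher and 3.93% lower in CML-TKI. For the 33 genes this was 1 higher and 3 lower. The groups did not overlap for 1 gene that was higher and 6 genes that were lower in CML-TKI, where 10.3% and 13.1% of all genes tested had no overlap in those directions. 16 log2 fold changes were positive and 17 negative, with a median of -0.09 and a range from -1.78 to 3.67, beside a median of -0.00026 over all genes tested. 11 of the 33 had an unadjusted p under 0.05, as had 25.7% of all genes tested. In bulk samples, fewer cells of a type that expresses a gene and less RNA of it per cell cannot be told apart. How many genes fell depended on single libraries: the number was 1 without CML 1, CML 2, CML 3 or CML-TKI 4, 2 without CML 5, CML-TKI 2 or CML-TKI 3, and 5 without CML-TKI 1, and the number that rose was 2 without CML-TKI 1, CML-TKI 2 or CML-TKI 4 and otherwise 1. With CML 1 to 3 summed to 1 library, these 4 genes did not pass edgeR's test.

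**Figure D1:**
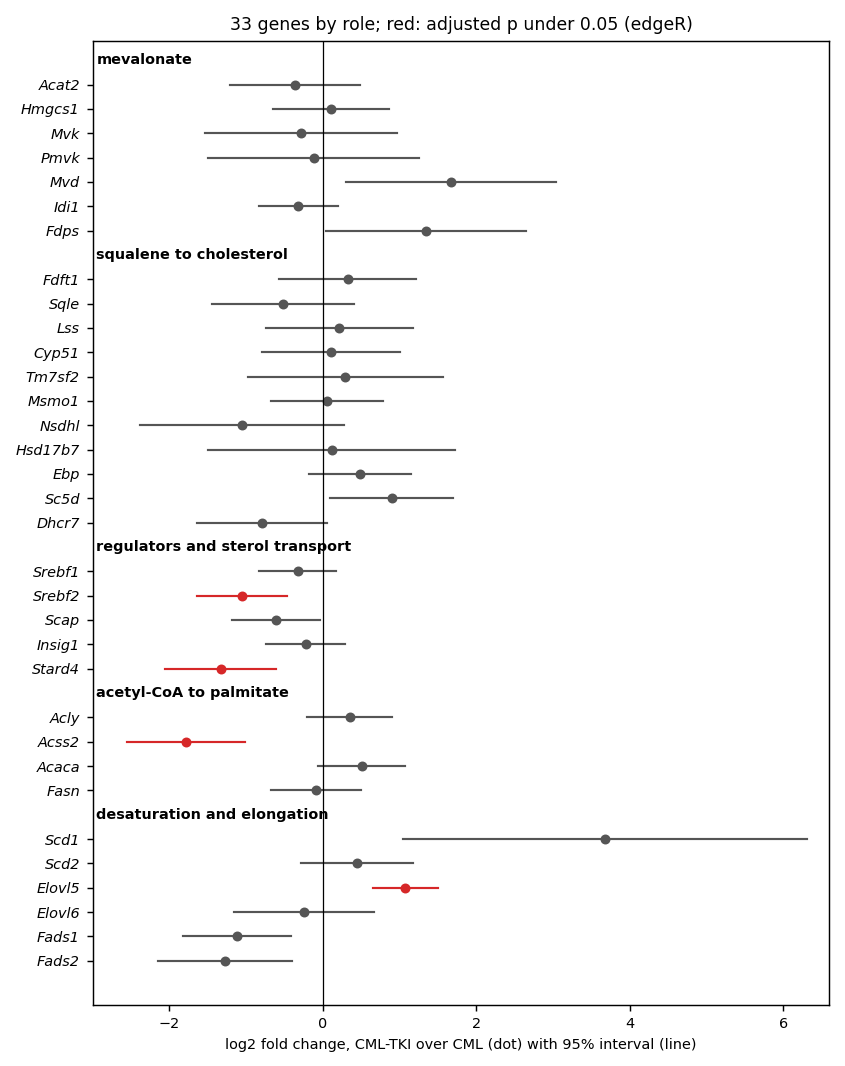
Log2 fold change of CML-TKI over CML for the 33 genes, ordered by role along the vertical axis, with dots for the estimate of edgeR's fit and lines for its 95% interval. The 4 genes in red passed the threshold, from Acss2 at -1.78 to Elovl5 at 1.08, while Scd1 at 3.67 has the widest line, from 1.04 to 6.31.

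Of the 5 regulators and carriers, all had negative log2 fold changes and 2 fell, where 50% of all genes tested had negative values and 3.93% were called lower. Srebf2 encodes SREBP-2, the SREBP mostly concerned with cholesterol genes, and lies on chromosome 15 at 82147269 to 82205379 on GRCm38. Its level was 412, 320.0, 364 and 459 CPM in CML 1, 2, 3 and 5 and 285, 150.3, 144 and 170.4 CPM in CML-TKI 1 to 4. All 4 CML-TKI libraries were below all CML libraries, with CML-TKI 1 the closest to them. The means were 389 ± 59.9 CPM in CML and 187 ± 66.3 CPM in CML-TKI (SD, n = 4 each), 2.07-fold higher in CML, and the log2 fold change was -1.05 (SE 0.26, edgeR adjusted p = 0.033 after Benjamini-Hochberg). The call did not hold with 1 library fewer unless that was CML-TKI 1: the edgeR adjusted p was 0.103, 0.063, 0.078 and 0.070 without CML 1, 2, 3 or 5, and 0.082, 0.073 and 0.079 without CML-TKI 2, 3 or 4, with the log2 fold change between -1.33 and -0.93 throughout. It was 0.064 when libraries were scaled by their totals alone and 0.202 with CML 1 to 3 summed.

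Stard4, a soluble carrier that moves cholesterol between membranes, also fell. It was read at 260.2, 252, 257 and 164 CPM in the CML libraries and at 95.9, 130.5, 42.7 and 98.6 CPM in the CML-TKI libraries. The lowest CML library, CML 5, was still above the highest CML-TKI library, CML-TKI 2, and the lowest, CML-TKI 3, rested on 39 counts. The means of 233 ± 46.5 and 91.9 ± 36.4 CPM (SD, n = 4 each) differed 2.54-fold, with a log2 fold change of -1.33 (SE 0.32, edgeR adjusted p = 0.029 after Benjamini-Hochberg). The edgeR adjusted p was 0.093, 0.084 and 0.082 without CML 1, 2 or 3 and 0.061 without CML-TKI 4, 0.074 with scaling by totals alone and 0.275 with CML 1 to 3 summed.

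Scap, the escort of the SREBPs, was at 149.8, 156, 139 and 187 CPM in CML and at 124, 101, 59.2 and 126 CPM in CML-TKI. The groups did not overlap, but the log2 fold change of -0.61 (SE 0.26) did not pass the test (edgeR adjusted p = 0.168). Srebf1, which encodes the SREBP forms tied mostly to fatty acid genes, had 134 to 135 CPM in CML 1 to 3, 206 CPM in CML 5 and 96.4 to 138 CPM in CML-TKI (log2 fold change -0.33, SE 0.23). Insig1, the retention protein, had 42.1 to 63.3 CPM in CML and 40.1 to 51.5 CPM in CML-TKI (log2 fold change -0.22, SE 0.23). Both groups overlapped for these last 2 genes, and the edgeR adjusted p was 0.402 for Srebf1 and 0.588 for Insig1. Added up, the 5 regulators and carriers stood at 904 to 1076 CPM in CML and 412 to 688 CPM in CML-TKI, without overlap.

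Srebf1 and Srebf2 were also set against each other within each library. The ratio of Srebf1 to Srebf2 counts was 0.328, 0.418, 0.368 and 0.448 in the CML libraries and 0.485, 0.641, 0.802 and 0.788 in the CML-TKI libraries. All 4 CML-TKI ratios were above all CML ratios, by 0.78 on the log2 scale on average (exact permutation test over 70 relabelings, two-sided, p = 0.0286, which is the lowest it can reach). Over the 5 ratios that were tested the Benjamini-Hochberg adjusted p was 0.0714, so this difference did not pass the correction. With p already at its lowest, a full separation of the groups could not have given less here. The correction thus does not decide on this difference.

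**Figure D2:**
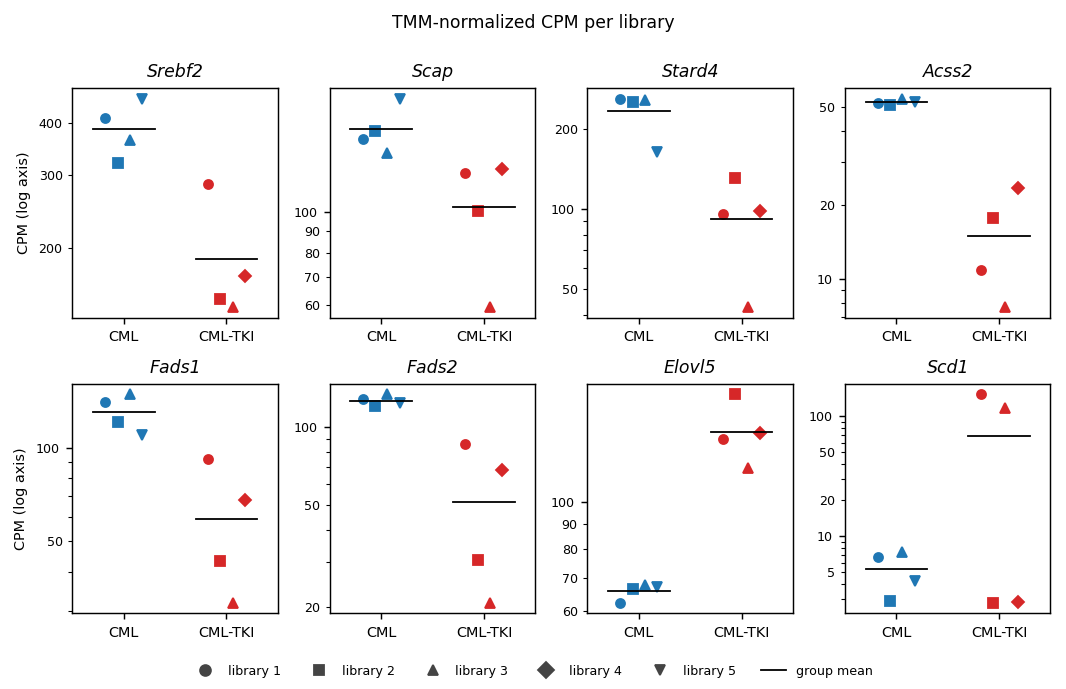
TMM-normalized CPM of 8 of the genes in each library on log axes, with 1 symbol per library number and a line at the arithmetic mean of each group. For Srebf2, Scap, Stard4, Acss2, Fads1, Fads2 and Elovl5 no CML-TKI symbol overlaps the CML symbols, while Scd1 has CML-TKI 1 and 3 at 152 and 116 CPM and CML-TKI 2 and 4 at 2.79 and 2.86 CPM.

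None of the 18 enzymes that run from acetoacetyl-CoA to cholesterol passed the test. Of their log2 fold changes 11 were positive and 7 negative, with a median of 0.11, a range from -1.06 to 1.67 and edgeR adjusted p between 0.117 and 0.945, and 3 had an unadjusted p under 0.05, a level that 25.7% of all genes reached. That Srebf2 fell and these enzymes did not pass the test does not show that they stayed the same. For 3 of the 18 the 95% interval of the fold change lay within 2-fold in either direction, and for the other 15 it reached beyond 2-fold.

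Among the 7 enzymes of the mevalonate steps the median log2 fold change was -0.12. Mvd, which decarboxylates mevalonate diphosphate, was the farthest from 0, with 2.59, 2.51, 2.32 and 6.32 CPM in the CML libraries and 4.56, 16.4, 14.2 and 9.37 CPM in the CML-TKI libraries. CML-TKI 1 lay inside the CML range and the other 3 CML-TKI libraries above it, and the log2 fold change of 1.67 (SE 0.61) had an edgeR adjusted p of 0.117, which was 0.036 without CML-TKI 1. These are low levels, with 12 to 53 counts per library. Fdps, the farnesyl diphosphate synthase, had 7.14 to 18.1 CPM in CML and 20.1, 71.9, 9.86 and 20.3 CPM in CML-TKI, so that CML-TKI 2 alone was far above the rest (log2 fold change 1.34, SE 0.58, edgeR adjusted p = 0.180). Without CML-TKI 2 the log2 fold change was 0.49.

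The other 5 genes of these steps overlapped between the groups and had log2 fold changes between -0.36 and 0.11. Hmgcs1, whose start region carries the core printed above, had 39.9, 40.7, 41.7 and 52.8 CPM in CML and 45.6, 53.3, 19.7 and 67.6 CPM in CML-TKI. CML-TKI 3 was below and CML-TKI 2 and 4 were above the CML range, and the log2 fold change was 0.11 with a 95% interval from -0.65 to 0.86. Idi1, which isomerizes isopentenyl diphosphate, had a log2 fold change of -0.32 (95% interval -0.84 to 0.20). Mvk and Pmvk, the kinases of mevalonate and phosphomevalonate, were at -0.28 and -0.12, and Pmvk had 1 count in CML-TKI 3, under the floor. Acat2, the cytosolic acetoacetyl-CoA thiolase, was at -0.36, and since 40.6% of the 50-base words in its exons also occur in the neighbouring Acat3, its counts are uncertain. The 7 genes summed to 135 to 176 CPM in CML and 107 to 227 CPM in CML-TKI.

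The 11 enzymes from squalene to cholesterol had a median log2 fold change of 0.11, 8 being positive and 3 negative, and their groups overlapped in every case. Sc5d, which sets the sterol ring double bond at the last steps, had 17.98, 15.1, 15.5 and 12.5 CPM in CML and 31.7, 43.7, 17.5 and 19.8 CPM in CML-TKI. Only CML-TKI 3 lay inside the CML range, and the log2 fold change was 0.90 (SE 0.36, edgeR adjusted p = 0.147). Dhcr7, the reductase of the final step from 7-dehydrocholesterol, had 34.6 to 57.3 CPM in CML and 35.7, 15.5, 12.1 and 31.5 CPM in CML-TKI, where CML-TKI 1 was inside and the other 3 below the CML range (log2 fold change -0.80, SE 0.38, edgeR adjusted p = 0.222). The 2 genes that act late in the same path thus had values of opposite sign, and neither passed the test.

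Nsdhl, a dehydrogenase in the removal of the C4 methyl groups, had 12.3 to 14.8 CPM in CML and 4.56, 13.9, 1.10 and 5.20 CPM in CML-TKI (log2 fold change -1.06, SE 0.60, and -1.76 without CML-TKI 2, with edgeR adjusted p of 0.300 and 0.078). Its value in CML-TKI 3 was a single count. Hsd17b7, the ketoreductase of the same C4 removal, had no count in CML-TKI 3, where 3 counts would be 3.29 CPM, and 7.91 to 13.1 CPM in CML beside 19.2, 14.3 and 12.7 CPM in CML-TKI 1, 2 and 4. Both genes were thus at or under the floor in CML-TKI 3. Sqle, the squalene epoxidase and a rate-limiting oxygen-dependent step, had 42.5 to 53.4 CPM in CML and 52.0, 31.9, 8.77 and 37.5 CPM in CML-TKI, with 8 counts in CML-TKI 3.

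Lss, the cyclase that forms lanosterol, was nearly level among the CML libraries (34.4 to 38.1 CPM) and spread from 16.4 CPM in CML-TKI 2 to 81.1 CPM in CML-TKI 3. Cyp51, the lanosterol demethylase, ran from 18.2 to 68.6 CPM in CML-TKI and from 23.6 to 42.1 CPM in CML. The remaining genes were Fdft1, the squalene synthase (log2 fold change 0.32), Tm7sf2, a sterol reductase (0.29), Msmo1, the C4 methyl oxidase (0.05), and Ebp, the sterol isomerase (0.49). Lss, Cyp51, Fdft1, Msmo1 and Hsd17b7 changed sign under some alternatives, as did Hmgcs1, Mvk and Pmvk above and Fasn and Elovl6 below. The 11 genes summed to 252 to 279 CPM in CML and 223 to 357 CPM in CML-TKI.

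**Figure D3:**
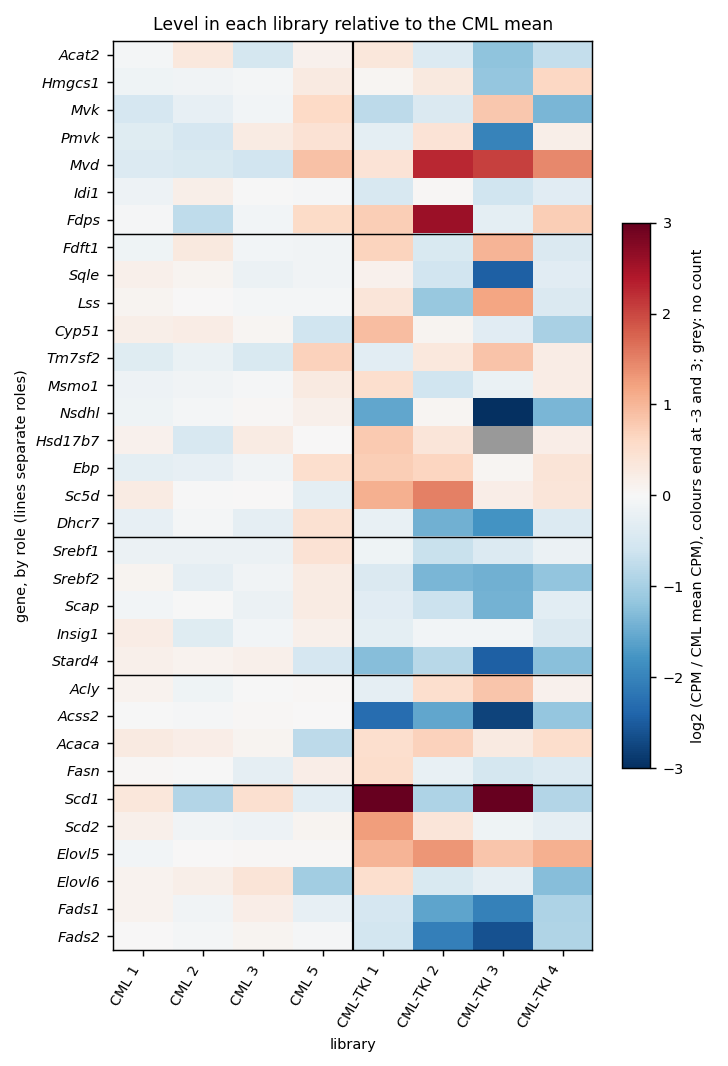
Level of each of the 33 genes in each library relative to its CML mean, as log2 of the CPM over the CML mean CPM, with red above and blue below that mean. The CML columns are mostly paler than the CML-TKI columns, Srebf2, Scap, Stard4, Acss2, Fads1 and Fads2 are blue in all 4 CML-TKI columns, as are Srebf1, Insig1 and Dhcr7, and Elovl5, Mvd, Sc5d, Ebp and Acaca are red in all 4, and the grey cell is Hsd17b7 in CML-TKI 3, with 0 counts.

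The 4 CML-TKI libraries were less alike than the 4 CML libraries in these genes, as they were over all genes. The median coefficient of variation was 15.4% in CML and 46.8% in CML-TKI, and it was larger in CML-TKI for 27 of the 33 genes. Over all 11937 genes tested the medians were 22.04% and 43.62%, and the coefficient was larger in CML-TKI for 81.0% of genes. CML-TKI 3, the library with the lowest total, was farthest from the CML mean for 18 genes and the lowest of the 4 for 20 genes, and 15 of its 33 values rested on 20 counts or fewer, against 5 or fewer such values in any other library. With every library thinned to 1041552 counts, an alternative chosen after seeing the data, 1 gene rose and 3 fell. CML-TKI 1 was the highest of the 4 for 15 genes. 20 genes lay below the CML range in CML-TKI 4, 17 in CML-TKI 3, 13 in CML-TKI 2 and 10 in CML-TKI 1, and 15 genes lay above it in CML-TKI 1. The summed level of all 33 genes was 3056 to 3347 CPM in CML and 3983, 2889, 2489 and 2510.5 CPM in CML-TKI 1 to 4, so CML-TKI 1 was above and the other 3 were below the CML range.

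Of the 4 enzymes that lead to palmitate, only Acss2 passed the test, where 3.93% of all genes tested were called lower. Acss2 makes acetyl-CoA from acetate, in parallel to Acly, which makes it from citrate, and lies on chromosome 2 at 155518043 to 155562743 on GRCm38. It was at 52.0, 51.0, 54.1 and 52.7 CPM in CML, an almost level group, and at 10.8, 17.7, 7.67 and 23.4 CPM in CML-TKI. All CML-TKI libraries were below all CML libraries by a wide margin, and CML-TKI 3, the lowest, had 7 counts. The means were 52.4 ± 1.32 and 14.9 ± 7.05 CPM (SD, n = 4 each), 3.52-fold higher in CML, with a log2 fold change of -1.78 (SE 0.34, edgeR adjusted p = 0.011 after Benjamini-Hochberg). Over the 8 fits that each lack 1 library, its log2 fold change ran from -2.08 to -1.59 and its edgeR adjusted p from 0.0089 to 0.046. With CML 1 to 3 summed the edgeR adjusted p was 0.168.

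Acly was at 285, 244, 261 and 269 CPM in CML and 218, 373, 472 and 292 CPM in CML-TKI, below the CML range in CML-TKI 1 and above it in the other 3 (log2 fold change 0.35, SE 0.25, edgeR adjusted p = 0.411). The ratio of Acss2 to Acly counts was 0.183, 0.209, 0.207 and 0.196 in CML and 0.050, 0.047, 0.016 and 0.080 in CML-TKI. These ratios did not overlap, all 4 CML-TKI values being lower, with a log2 difference of -2.25 (exact two-sided permutation test, p = 0.0286, adjusted over the 5 ratios 0.0714). This p too was the lowest the test can reach, so the correction does not decide on this difference either. Acaca, the acetyl-CoA carboxylase that commits carbon to fatty acids, was at 134, 128, 119 and 64.3 CPM in CML and 158, 179, 134 and 162 CPM in CML-TKI. CML-TKI 3 lay just under CML 1, and the log2 fold change of 0.51 (SE 0.26) had an edgeR adjusted p of 0.248. Fasn, the synthase that makes palmitate, had 448 to 622 CPM in CML and 373 to 781 CPM in CML-TKI, with a log2 fold change of -0.09 and a 95% interval from -0.67 to 0.50, which is within 2-fold.

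Of the 6 enzymes that act on fatty acids after palmitate, 1 passed the test, where 6.29% of all genes tested were called higher. Elovl5, which lengthens polyunsaturated chains, rose, and the paired desaturases Fads1 and Fads2, which act on the same chains, had lower values in all 4 CML-TKI libraries but did not pass the test. Elovl5 lies on chromosome 9 at 77917365 to 77984519 and was at 62.2, 66.4, 67.8 and 67.0 CPM in CML and 134, 165, 117 and 138 CPM in CML-TKI. The lowest CML-TKI library, CML-TKI 3, was well above the highest CML library. The means were 65.9 ± 2.48 and 139 ± 19.9 CPM (SD, n = 4 each), 2.10-fold higher in CML-TKI, and the log2 fold change was 1.08 (SE 0.19, edgeR adjusted p = 0.0072 after Benjamini-Hochberg). Over the 8 fits that each lack 1 library it ran from 0.98 to 1.16, and the edgeR adjusted p from 0.0051 to 0.044. With CML 1 to 3 summed the edgeR adjusted p was 0.192.

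Fads1, the delta-5 desaturase, was at 140.3, 121, 148 and 109.7 CPM in CML and 91.9, 43.4, 31.8 and 68.2 CPM in CML-TKI (log2 fold change -1.12, SE 0.32, edgeR adjusted p = 0.051). Fads2, the delta-6 desaturase, was at 128, 121, 134 and 124 CPM in CML and 86.2, 30.7, 20.8 and 68.2 CPM in CML-TKI (log2 fold change -1.27, SE 0.39, edgeR adjusted p = 0.069). For both genes the groups did not overlap, the CML-TKI libraries ranked alike, and CML-TKI 1 was the closest to CML and CML-TKI 3 the lowest. Without CML-TKI 1 the edgeR adjusted p was 0.0083 for Fads1 and 0.013 for Fads2, and in DESeq2 and limma-voom on all 8 libraries both genes also passed. The 2 genes are 81.4 kb apart on chromosome 19 and share none of their 50-base exon words. The ratio of Fads2 to Fads1 was 0.906 to 1.13 in CML and 0.655 to 1 in CML-TKI, with overlap (log2 difference -0.28, exact two-sided permutation test, p = 0.257, adjusted over the 5 ratios 0.321).

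Elovl6, which lengthens palmitate to stearate, was at 67.1, 70.8, 81.2 and 30.1 CPM in CML and 87.7, 45.2, 51.5 and 25.8 CPM in CML-TKI, and in each group 1 library was low, CML 5 and CML-TKI 4 (log2 fold change -0.24, SE 0.41). The ratio of Elovl5 to Elovl6 was 0.927, 0.937, 0.836 and 2.22 in CML and 1.53, 3.65, 2.28 and 5.35 in CML-TKI. CML 5 alone overlapped the CML-TKI ratios, and the log2 difference was 1.35 (exact two-sided permutation test, p = 0.0571, adjusted over the 5 ratios 0.0952).

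Scd1 and Scd2, desaturases that turn stearate into oleate, stood at opposite ends of the levels in CML. Scd2 was the gene with the highest level per kilobase of exon in both groups, 81.8 ± 8.33 CPM per kb in CML and 110.9 ± 59.0 CPM per kb in CML-TKI (SD, n = 4 each), and Scd1 had the lowest in CML, 1.10 ± 0.43 CPM per kb. In CML-TKI, Scd1 was at 152, 2.79, 116 and 2.86 CPM, against 6.67, 2.90, 7.34 and 4.26 CPM in CML. CML-TKI 1 and 3 were thus far above the CML libraries while CML-TKI 2 and 4, with 9 and 11 counts, were at the level of the lowest CML library, and the log2 fold change of 3.67 (SE 1.18, edgeR adjusted p = 0.079) describes neither pair. Without CML-TKI 2 or CML-TKI 4 the edgeR adjusted p was 0.040 or 0.039. The value rested on the test and the libraries: it was 2.84 without CML-TKI 1, 1.74 in limma-voom (adjusted p = 0.466), 0.98 in limma-voom with quality weights (adjusted p = 0.482) and 3.69 in DESeq2 (adjusted p = 0.0024). Adipoq, an adipocyte marker, had no count in any CML-TKI library, and the 6 adipocyte and stroma markers summed to 58.8, 17.4, 607 and 242 CPM in CML 1, 2, 3 and 5 and to 57.5, 6.51, 115 and 11.2 CPM in CML-TKI 1 to 4. Within CML-TKI the sums were higher in the 2 libraries with high Scd1, but CML 3 and CML 5, with low Scd1, were above both. The part of such cells in Scd1 was not tested.

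Scd2 was at 495, 417, 399 and 474 CPM in CML and 1069.9, 571, 411 and 369 CPM in CML-TKI, with CML-TKI 1 more than all others (log2 fold change 0.44, SE 0.33, edgeR adjusted p = 0.439). The ratio of Scd2 to Scd1 was 54.4 to 143.9 in CML and 7.04, 204.7, 3.54 and 128.8 in CML-TKI (exact two-sided permutation test on the log2 ratio, p = 0.40). The 2 genes lie 87.6 kb apart on chromosome 19, and 2.995% of the 50-base exon words of Scd1 also occur in Scd2. Neither gene's counts were whole numbers in any library.

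**Figure D4:**
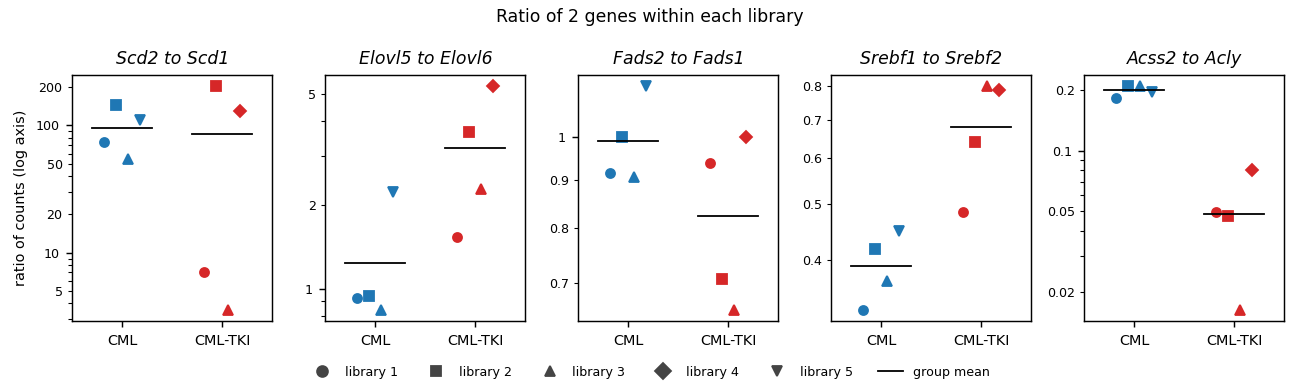
Ratio of the counts of 2 genes within each library, on log axes, for 5 pairs, with 1 symbol per library number and a line at the arithmetic mean of each group. The groups do not overlap for Srebf1 to Srebf2 (0.328 to 0.448 in CML, 0.485 to 0.802 in CML-TKI) or for Acss2 to Acly (0.183 to 0.209 and 0.016 to 0.080), and the other 3 pairs overlap.

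Levels per kilobase of exon place these genes among the 33. After Scd2, Srebf2 was rank 2 in CML with 76.5 ± 11.8 CPM per kb and rank 5 in CML-TKI with 36.9 ± 13.1 CPM per kb. Acly (57.4 and 73.5 CPM per kb) and Fasn (53.6 and 50.4 CPM per kb) were among the 4 highest in both groups. Elovl5 moved from rank 10, 23.7 ± 0.89 CPM per kb, to rank 4, 49.8 ± 7.14 CPM per kb, where its level differed from that of Fasn by less than the spread of Fasn (SD 18.6). Acss2 moved from rank 14 at 13.7 ± 0.35 CPM per kb to rank 29 at 3.90 ± 1.85 CPM per kb, and Stard4 from rank 5 to rank 10. Mvd, Hsd17b7, Tm7sf2 and Pmvk were at 3 CPM per kb or less in CML, next to Scd1.

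Genes that act next to this pathway were read from 5 further lists of 72 genes, of which 63 were tested and 3 rose and 3 fell, with a median log2 fold change of 0.03, where 6.29% of all genes tested were higher and 3.93% lower. Within the proteins that store, release, export or take up cholesterol, Soat1, the enzyme that esterifies it for storage, rose from 66.6, 55.8, 56.0 and 49.6 CPM in CML to 163, 396, 357 and 91.1 CPM in CML-TKI (log2 fold change 2.14, SE 0.43, edgeR adjusted p = 0.013). Nceh1, a hydrolase that frees cholesterol from its esters, fell from 139, 126, 137 and 120.2 CPM to 91.2, 47.7, 49.3 and 40.1 CPM (log2 fold change -1.19, SE 0.28, edgeR adjusted p = 0.025). Abcg1, a sterol exporter, fell from 167, 142, 148 and 182 CPM to 51.9, 18.6, 77.8 and 47.1 CPM (log2 fold change -1.73, SE 0.37, edgeR adjusted p = 0.016). The groups of these 3 genes did not overlap, as was the case for 10.3% of all genes tested with higher and 13.1% with lower values in CML-TKI. Left out singly, some libraries ended the calls: the edgeR adjusted p was 0.050 for Soat1 without CML 2 or CML 5, 0.054 for Abcg1 without CML 1, and for Nceh1 0.081, 0.066 and 0.073 without CML 1, 2 or 3 and 0.064, 0.054 and 0.056 without CML-TKI 2, 3 or 4.

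Abca1, the other main exporter and like Abcg1 a target of the sterol-sensing LXR receptors, was at 69.7 to 108 CPM in CML and 7.44 to 59.2 CPM in CML-TKI, without overlap, and had an edgeR adjusted p of 0.075, which was 0.035 without CML-TKI 3, and it passed in DESeq2 (adjusted p = 0.017) and limma-voom (adjusted p = 0.014). Of the 10 genes tested of the LXR axis, efflux and esterification, 1 rose and 2 fell, with a median log2 fold change of -0.71, and the shares of all genes tested called in those directions were 6.29% and 3.93%. Of the 11 genes of sterol uptake and trafficking, 2 rose and none fell, against the same shares. They were Npc2, the lysosomal carrier that hands on cholesterol from ingested lipoprotein, at 51.5 to 76.7 CPM in CML and 89.6 to 167 CPM in CML-TKI (log2 fold change 1.23, SE 0.25, edgeR adjusted p = 0.015), and Lrp1, an endocytic receptor, at 4.63 to 23.0 CPM and 207 to 429 CPM (log2 fold change 4.66, SE 0.61, edgeR adjusted p = 0.0018). The groups did not overlap for either gene. Lrp1 passed with each library left out, and Npc2 had an edgeR adjusted p of 0.066, 0.062 and 0.062 without CML 1, 2 or 3. Lrp1 and Soat1 are also known from macrophages, and all 9 monocyte markers were higher in CML-TKI, with sums of 822, 4458, 3215 and 2207 CPM in CML-TKI 1 to 4. Lrp1 and Soat1 were highest in CML-TKI 2 and 3, where these sums were highest too, while CML-TKI 4 had a higher sum than CML-TKI 1 and lower Lrp1 and Soat1. Abcg1, Nceh1 and Abca1, read in the same list as Soat1, had lower values in CML-TKI (log2 fold changes -1.73, -1.19 and -1.56). The part of monocytes or macrophages in any of these values was not tested.

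Of 10 genes that process or degrade SREBPs, 1 fell: Pgrmc1, a membrane protein that binds INSIG1 and heme, from 82.9, 96.9, 98.2 and 95.3 CPM to 65.7, 48.3, 43.8 and 52.8 CPM, without overlap, where 3.93% of all genes tested were called lower and 13.1% had no overlap in this direction (log2 fold change -0.82, SE 0.21, edgeR adjusted p = 0.033). Its call held with 1 library fewer only when that was CML-TKI 1, the edgeR adjusted p being 0.087, 0.106, 0.107 and 0.054 without CML 1, 2, 3 or 5 and 0.075, 0.053 and 0.069 without CML-TKI 2, 3 or 4. With CML 1 to 3 summed, Lrp1 alone of the 6 neighbouring genes passed, and Pgrmc1 did not pass with thinned libraries (edgeR adjusted p = 0.158) or with scaling by totals alone (0.082). Of 10 further sterol and isoprenoid enzymes and of 22 further genes of fatty acid synthesis and activation none passed edgeR's test, while 3 and 4 of them had an unadjusted p under 0.05, as had 25.7% of all genes tested.

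**Figure D5:**
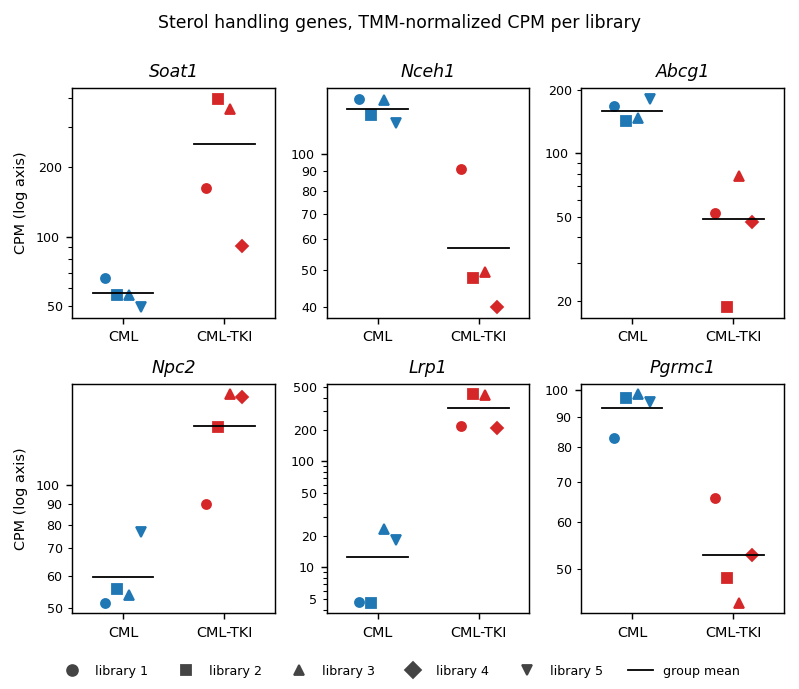
TMM-normalized CPM per library on log axes for the 6 neighbouring genes that passed the test, with 1 symbol per library number and a line at the arithmetic mean of each group. Soat1, Npc2 and Lrp1 lie higher and Nceh1, Abcg1 and Pgrmc1 lower in all 4 CML-TKI libraries than in any CML library, and for Nceh1, Npc2 and Pgrmc1 CML-TKI 1 is the library nearest to CML.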

How the data were processed

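RNA-seq libraries of sorted cells were available for 4 CML and 4 CML-TKI samples. After RNA isolation on columns and Nextera XT preparation, the authors mapped paired reads to mm10 (STAR 2.6.1d), assigned them to transcripts of RefSeq (Partek 8.0; versions as in the submitters' processing notes) and deposited estimated counts per gene, not normalized, 1 column per library. Between 8.3% and 22.1% of a library's values were not whole numbers, among them those of 11 of the 33 genes in at least 1 library. 20 symbols of the table were dates, 1 symbol was duplicated and 5 genes had no count. One ribosomal RNA gene, Rn45s, held 9.23% to 38.3% of the counts of a library.

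The column numbered 5 served as the remaining CML library, since no label has that number. Estimated counts were rounded to whole numbers and tested on all genes with edgeR 4.0.16 in R 4.3.3 (TMM, filterByExpr with a minimum count of 10 and a minimum total of 15, robust quasi-likelihood test, Benjamini-Hochberg adjustment, threshold 0.05). SE is the size of the log2 fold change over the square root of F, intervals are 95% intervals of that fit, and CPM are TMM-normalized. Ratios used counts within a library and exact two-sided permutation tests with 70 relabelings. Exon lengths are those of the union of exons in GENCODE, and positions and start regions are from RefSeq. Genes were described by role, with every library's value for genes past the threshold or without overlap and for those that stand for a step, and the rest by range. The members of the list, the gene lists and the tests were chosen with earlier results of these data known. On simulated counts of 11690 genes for this comparison, edgeR recovered 49.5% of 4-fold and 81.9% of 8-fold changes with 3.88% of its calls false, limma-voom (limma 3.58.1) 45.3% and 67.0% with 0.93% false, and DESeq2 1.42.0 66.3% and 90.4% with 24.9% false. The simulation gave both groups the same spread for each gene and changed few genes. Its shares may thus not hold for the real libraries, which varied more in CML-TKI than in CML. Reads carried no molecular identifiers, so counts are not independent molecules. Counting by strand was not stated, so overlapping genes may share reads.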

Additional observations from a re-analysis of the deposited data

Results flagged for a closer look

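For 40 genes (the 33 and the 7 neighbouring genes named), the highest and the lowest of the 4 libraries of each group were compared with the others, and in 8 of 80 groups 1 library stood apart by Dixon's criterion, where chance gives about 1 in 20, or 4. In 6 of the 8 the library was CML 5, the CML column whose number is not in the labels.

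CML 5 was the highest CML library for Hmgcs1 (52.8 CPM, the nearest 41.7 CPM), Mvd (6.32 CPM, the nearest 2.59 CPM), Tm7sf2 (6.87 CPM, the nearest 3.67 CPM), Srebf1 (206 CPM, the nearest 135 CPM) and Npc2 (76.7 CPM, the nearest 55.6 CPM), and the lowest for Stard4 (164 CPM, the nearest 252 CPM). CML 2 was the highest for Fdft1 (21.8 CPM, the nearest 16.8 CPM). CML-TKI 2 was the highest CML-TKI library for Fdps (71.9 CPM, the nearest 20.3 CPM).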

How the results depend on the processing

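edgeR called 1220 genes, 1 of the 33 higher and 3 lower. These became 2157, 2 and 5 in DESeq2, 2544, 2 and 5 in limma-voom with quality weights, 1957, 2 and 5 at an adjusted p under 0.1, and 122, 0 and 0 with CML 1 to 3 summed to 1 library. limma-voom called 5 lower and scaling by library totals 1 lower. With each library left out the counts ran from 505 to 2504 genes, 1 to 2 higher and 1 to 5 lower. RLE normalization, no Rn45s, no filter and thinning kept every count within 1.5 times. Elovl5 and Acss2 were called in all but 2 of 20 alternatives, CML 1 to 3 summed and the block (adjusted p 0.110 and 0.082).

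With the replicate number as a block on the 3 numbered pairs, 193 genes, 0 higher and 0 lower of the 33, were called, and without the block on the same 6 libraries 589, 1 and 1. Correlations between same-numbered libraries were -0.04, 0.10 and 0.09, and not every library correlated best with its own number. With 3 such pairs this cannot tell whether the samples are paired, and they are known to share only a number.

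Of 655 fold changes under 20 alternatives, 28, in 10 of the 33 genes, changed sign, the largest by size being 0.38. They were Lss -0.19 (limma-voom), Pmvk 0.13, Fdft1 -0.040, Lss -0.29, Cyp51 -0.38 and Hsd17b7 -0.27 (quality weights), Hmgcs1 -0.12, Mvk 0.15, Hsd17b7 -0.33 and Fasn 0.024 (block), Hmgcs1 -0.012, Msmo1 -0.062 and Elovl6 0.012 (CML 1 to 3 summed), and Hmgcs1 -0.0095, Mvk 0.25 and Fasn 0.092 (3 pairs without block). With 1 library left out the ranges were Hsd17b7 -0.19 to 0.49, Pmvk -0.35 to 0.13, Cyp51 -0.35 to 0.34, Msmo1 -0.15 to 0.22, Lss -0.26 to 0.48, Fasn -0.38 to 0.044, Hmgcs1 -0.13 to 0.35. The causes were not tested. The median of all genes moved to -0.11 with quality weights and -0.13 under the block. CML-TKI 3, with the fewest counts, limits the low genes.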

Other observations

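Some further genes of lipid synthesis that did not pass edgeR's test are given as values, chosen after their values were seen. Slc25a1, the carrier that exports citrate from mitochondria for Acly, was at 39.4 to 77.4 CPM in CML and 9.92 to 38.4 CPM in CML-TKI (log2 fold change -1.23, SE 0.40, edgeR adjusted p = 0.084). Mcat, an enzyme of mitochondrial fatty acid synthesis, was at 32.0 to 62.6 CPM in CML and 19.2 to 21.9 CPM in CML-TKI (log2 fold change -0.96, SE 0.30, edgeR adjusted p = 0.078). Hacd4, a dehydratase of very long chain synthesis, was at 32.6 to 83.9 CPM in CML and 6.24 to 29.8 CPM in CML-TKI (log2 fold change -1.54, SE 0.48, edgeR adjusted p = 0.075). Their groups did not overlap, as was the case for 13.1% of all genes tested in this direction. Lbr, a nuclear envelope protein with sterol reductase activity, was at 297 to 321 CPM in CML and 309, 888, 495 and 651 CPM in CML-TKI, so that CML-TKI 1 was inside the CML range and the others were above it (log2 fold change 0.93, SE 0.30, edgeR adjusted p = 0.077).

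Megakaryocyte markers summed to 1443 to 1736 CPM in CML and 62.6 to 784 CPM in CML-TKI. Among the 7, 2 were called lower and 5 were lower without overlap, against 3.93% and 13.1% of all genes tested. B cell markers were at 250 CPM and T cell markers at 62.5 CPM in CML-TKI 3, against 23.2 CPM or less and 15.3 CPM or less in the other libraries.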
